A study of Mus musculus with 2 samples.

Results

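The Wnt antagonists *Sfrp1*, *Sfrp2*, *Sfrp4*, *Frzb*, *Dkk2*, *Dkk3* and *Wif1* and the R-spondins *Rspo1*, *Rspo2* and *Rspo3* are described here in single cells of amputated mouse digits. The genes were chosen by symbol, and all 10 were found among the 33696 genes of the count tables, each as a single row. Digits 2 and 4 of the hindlimbs of ICR mice had been amputated through the middle phalanx (P2) on postnatal day 3, an amputation that does not regenerate untreated. An agarose bead soaked in FGF8 (500 ng/µl) or, as the control, in 0.1% BSA was implanted on postnatal day 7, and the tissue was taken 24 h after that, on postnatal day 8. Each condition was 1 library, a pool of 20 digits from 5 male and female mice, of the tissue distal to the P2 stump after the epithelium had been removed. Both groups were amputated and given a bead, so the comparison was set up to address what FGF8 adds to a bead. Each condition is 1 pool from its own mice, so a library difference cannot be assigned to FGF8 alone. Not every FGF8-treated digit goes on to regenerate, and the pool does not separate those that would.

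Wnt proteins signal through Frizzled receptors and LRP co-receptors, and the canonical branch stabilises beta-catenin. Secreted frizzled-related proteins (*Sfrp1*, *Sfrp2*, *Sfrp4* and *Frzb*, which is also called Sfrp3) and *Wif1* bind Wnt proteins outside the cell, whereas *Dkk2* acts on the LRP co-receptors and *Dkk3* is a divergent relative of the Dickkopf family. R-spondins work in the other direction: they bind LGR receptors and the ligases ZNRF3 and RNF43 and so keep Frizzled receptors at the cell surface. In limb skeletons these secreted regulators are known from joint, cartilage, tendon and dermal tissue.

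The highest levels of an antagonist in any cluster were those of *Dkk2* and *Wif1*, which were abundant in the same clusters, so their promoters are shown. RefSeq promoter sequences (build GRCm38.p6; 250 bases before to 50 after the annotated start) were at hand for 5 of the 10 members, *Frzb*, *Sfrp2*, *Dkk2*, *Rspo1* and *Wif1*. The *Dkk2* window is chr3:132085042-132085341 on the plus strand and the *Wif1* window is chr10:121033754-121034053 on the plus strand. Capitals mark matches, on either strand, to the TATA box letters TATAAA, the GC box letters GGGCGG or the TCF/LEF letters CTTTGAT.
Dkk2: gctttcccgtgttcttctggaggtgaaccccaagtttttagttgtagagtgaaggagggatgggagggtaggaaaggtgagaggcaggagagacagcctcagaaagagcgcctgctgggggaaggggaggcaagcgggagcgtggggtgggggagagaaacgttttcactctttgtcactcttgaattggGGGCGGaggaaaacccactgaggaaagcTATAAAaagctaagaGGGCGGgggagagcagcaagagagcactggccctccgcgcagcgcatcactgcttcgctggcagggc
Wif1: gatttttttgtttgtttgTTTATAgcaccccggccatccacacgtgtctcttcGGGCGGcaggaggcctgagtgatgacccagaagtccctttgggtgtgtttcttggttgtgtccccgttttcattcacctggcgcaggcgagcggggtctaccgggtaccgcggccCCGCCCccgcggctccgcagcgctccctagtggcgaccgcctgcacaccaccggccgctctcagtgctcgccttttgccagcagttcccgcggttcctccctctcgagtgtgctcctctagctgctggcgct
The *Dkk2* window held a TATA box whose first base lies 32 bases before the start, and 2 GC boxes. The *Wif1* window held the same letters on the other strand 232 bases before the start, and 2 GC boxes. Neither held the TCF/LEF letters, nor did the other 3 members' windows. Among all 32851 promoters in the table, 13.6% held TATAAA, 35.7% held GGGCGG and 3.73% held CTTTGAT, and a match describes the letters only. The 2 promoters differ in CpG content, with 11 CpG in the *Dkk2* window and 25 in the *Wif1* window.

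In GRCm39, the build of the counts, the members lie on 8 chromosomes. *Sfrp2* (chr3:83673481-83681623) and *Dkk2* (chr3:131790336-131886065) share chromosome 3, and *Wif1* (chr10:120869865-120936555) and *Rspo3* (chr10:29327285-29411876) share chromosome 10, each pair far apart. The other members are *Sfrp1* (chr8:23901263-23939648), *Sfrp4* (chr13:19807274-19817164), *Frzb* (chr2:80242313-80278304), *Dkk3* (chr7:111712904-111758760), *Rspo1* (chr4:124879876-124902892) and *Rspo2* (chr15:42877439-43034706). *Sfrp2*, *Frzb*, *Dkk2*, *Rspo1* and *Rspo3* overlap annotated noncoding or unclassified genes in GENCODE vM39, and for *Rspo3* one of these lies on the same strand, so part of its count may belong to that transcript.

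After filtering, 6715 cells of the FGF8 library (median 12251 UMIs a cell) and 3252 of the BSA library (median 15377) remained, and 4 of their barcodes were shared by both libraries. With 1 library per condition there is no replicate error and no test of a treatment difference: every interval given is a 95% interval of counting error only, and it leaves out the variation between mice, between library preparations and between cells, so a value that rests on a few cells is less certain than its interval. The libraries also differed in sex, since females gave 24.6% of the sex-called FGF8 cells and 79.3% of the sex-called BSA cells, so sex and treatment are separated only where female-called and male-called cells are given apart. Levels are counts per 1000000 UMIs (CPM). A 3′ UMI library counts a molecule once whatever its length, so CPM is set side by side between genes without a correction for length. Other differences between genes in how fully their molecules are counted were not examined. Cells were clustered without the members and without 65 other Wnt pathway genes, at a coarse setting for broad types and at a fine setting. The broad fibroblast-like class held 3321 FGF8 and 1713 BSA cells, and all 6 markers of its list (*Pdgfra*, *Dpt*, *Col1a1*, *Col3a1*, *Lum*, *Dcn*) were detected in it. The epithelium was not wholly absent, since 191 FGF8 and 100 BSA cells formed a keratinocyte-like class. The fine setting cut the fibroblast-like class into clusters that are called by their 2 leading genes.

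The antagonists and R-spondins were spread over several of the 17 fine cell classes, and some shared a leading class. Of the 10, 8 were highest in a cluster of fibroblast-like cells. The exceptions were *Sfrp1*, highest in Schwann-like cells, and *Frzb*, highest in chondrocyte-like cells. The leading class was the same in both libraries for 9 of the 10, as the map of levels shows. For *Dkk3* it was the *Fmod*/*Kcnma1* cluster in BSA (205 CPM) and the shallow *Lars2*/*Camk1d* cluster in FGF8 (155 CPM, against 145 CPM in the *Fmod*/*Kcnma1* cluster).

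**Figure D1:**
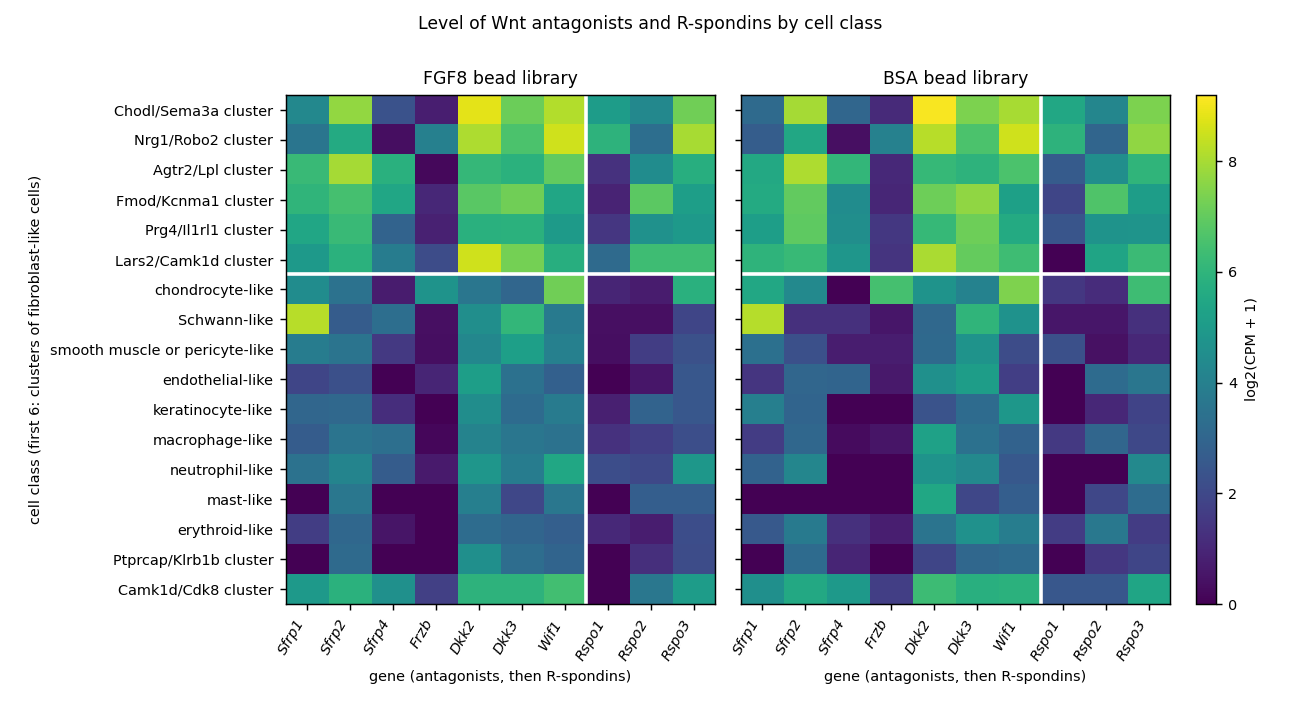
Level of each gene (columns) in each of 17 cell classes (rows) of the FGF8 and BSA libraries, as log2(CPM + 1), with 1 library per condition. The white lines set apart the clusters of fibroblast-like cells from other classes and the antagonists from the R-spondins; *Sfrp1* is brightest in the Schwann-like row and *Frzb* in the chondrocyte-like row.

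*Sfrp1*, a secreted Wnt-binding protein, stood at 292 CPM in the FGF8 and 287 CPM in the BSA Schwann-like cells, and 76.9% of the Schwann-like cells of both libraries held a UMI of it. The next class, the cluster led by *Agtr2* and *Lpl*, was at 61.7 CPM over both libraries (interval 57.5 to 66.2), below the 290 CPM (276 to 305) of the Schwann-like cells. Schwann-like cells held 3.38% of all UMIs but 25.5% of those of *Sfrp1*. The genes most like *Sfrp1* over the 17 classes were *Nfasc*, *Chl1* and *Gfra1*, with Pearson r of 0.87, 0.87 and 0.86 on log2(CPM + 10); these 3 encode cell-surface proteins of the nervous system. Correlations over classes are descriptions, since all classes come from the same 2 libraries.

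*Sfrp2* and *Sfrp4*, the other secreted frizzled-related proteins of fibroblasts, were both highest in the *Agtr2*/*Lpl* cluster, which is also led by *Pi16*, *Dlk1* and *Clec3b*. *Sfrp2* was at 257 CPM there and at 228 CPM in the cluster led by *Chodl* and *Sema3a*, with intervals that do not overlap (248 to 266 and 222 to 235). *Sfrp4* was at 61.0 CPM there and at 32.4 CPM in the cluster led by *Fmod* and *Kcnma1*. *Sfrp4* was the more restricted of the pair: 8.67% of FGF8 and 7.41% of BSA fibroblast-like cells held a UMI of it, against 43.0% and 49.2% for *Sfrp2*. The gene most like *Sfrp2* was *Dpt* (r = 0.96), a matrix gene of fibroblasts, and the gene most like *Sfrp4* was *Agtr2* (r = 0.89), which is a leading gene of that cluster.

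*Frzb* was rare. Chondrocyte-like cells held 228 of its UMIs, which was 51.1% of all, at 47.2 CPM (41.3 to 53.8), and the cluster led by *Nrg1* and *Robo2* followed at 15.1 CPM (12.4 to 18.2) with another 24.7%. No other class exceeded 3 CPM over both libraries.

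*Dkk2* was the most abundant member. The *Chodl*/*Sema3a* cluster was at 497 CPM (487 to 507), 82.5% of its cells held a UMI, and it alone gave 48.7% of the *Dkk2* UMIs from 11.7% of all UMIs. The shallow *Lars2*/*Camk1d* cluster followed at 336 CPM and the *Nrg1*/*Robo2* cluster at 280 CPM. *Gas2*, a cytoskeletal gene, followed *Dkk2* most closely (r = 0.98). *Dkk3* was spread more evenly, at 173 CPM in the *Fmod*/*Kcnma1* cluster and 152 CPM in the *Chodl*/*Sema3a* cluster. The *Lars2*/*Camk1d* cluster was at 147 CPM and the *Nrg1*/*Robo2* cluster at 96.5 CPM. *Dkk3* was the member found in most fibroblast-like cells (63.5% in FGF8 and 70.7% in BSA).

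*Wif1* and *Rspo3* shared a pattern. *Wif1* was highest in the *Nrg1*/*Robo2* cluster at 367 CPM (354 to 382), then in the *Chodl*/*Sema3a* cluster at 266 CPM and in chondrocyte-like cells at 155 CPM. *Rspo3* took the same first and second places, at 229 CPM (218 to 240) and 156 CPM. Of all genes tested for likeness, each of these was the most like the other (r = 0.95 over 17 classes), although one binds and inhibits Wnt proteins and the other raises the response to them. *Wif1* is itself among the 10 leading genes of the *Nrg1*/*Robo2* cluster, beside *Fgf10* and *Ptch1*.

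The match between classes was not seen in the detection of both genes in single cells of the *Nrg1*/*Robo2* cluster. UMIs per cell were not compared there, and a subset of these cells high in both genes is described below. With every cell thinned to 5000 UMIs, *Rspo3* was found in 33.1% of the 145 FGF8 cells that held *Wif1* and in 33.1% of the 139 that did not. In the BSA library the shares were 34.1% of 88 cells and 31.4% of 102 cells, and the intervals overlapped in both libraries. In the BSA cells of the *Prg4*/*Il1rl1* cluster, in contrast, *Rspo3* was found in 42.4% (25.5 to 60.8) of 33 cells with *Wif1* and in 5.93% (3.28 to 9.75) of 236 cells without it. The FGF8 cells of the same cluster gave 16.5% (9.73 to 25.4) and 10.96% (9.13 to 13.0), which overlap. The intervals also overlapped in both libraries in the *Chodl*/*Sema3a*, *Fmod*/*Kcnma1* and *Agtr2*/*Lpl* clusters. The BSA cells of the *Prg4*/*Il1rl1* cluster were thus the only ones whose intervals separated, and they were few.

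The other R-spondins differed from *Rspo3* in place. *Rspo1* was at 60.8 CPM in the *Nrg1*/*Robo2* cluster and at 38.7 CPM in the *Chodl*/*Sema3a* cluster, and those clusters held 31.6% and 50.6% of its UMIs. The receptor gene *Prokr2* was among the 3 genes most like it (r = 0.96). *Rspo2* was highest in the *Fmod*/*Kcnma1* cluster at 109 CPM (104 to 114), with 46.1% of its UMIs, and was most like *Fgf18* (r = 0.94). So *Rspo2* shared its leading cluster with *Dkk3*, whereas *Rspo1* and *Rspo3* shared theirs with *Wif1*.

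A finer clustering drew the *Nrg1*/*Robo2* pattern together further. At a resolution of 1, 109 of those cells (72 FGF8 and 37 BSA) formed a cluster led by *Corin* and *Adamts18*, which is 1.09% of all cells and 1.10% of all UMIs. *Corin* is known as a gene of the hair follicle's dermal papilla; no marker list for that structure was fixed, so the cluster is left unnamed. *Rspo3* was at 759 CPM in its FGF8 cells and 612 CPM in its BSA cells. *Wif1* was at 667 and 720 CPM, and *Rspo1* at 179 and 208 CPM. The 109 cells held 23.7% of all *Rspo1* UMIs, 15.2% of those of *Rspo3*, 14.8% of those of *Frzb* and 9.35% of those of *Wif1*, but 0.782% of those of *Sfrp2*. The whole *Nrg1*/*Robo2* cluster, of which they are part, held 31.6% of *Rspo1*, 21.0% of *Rspo3*, 24.7% of *Frzb* and 20.9% of *Wif1* UMIs. Levels of the *Nrg1*/*Robo2* cluster without the 109 cells were not computed, so its first places may rest on them. *Wif1* was found in 94.4% of the FGF8 and 86.5% of the BSA cells of this cluster, while *Rspo3* was found in 59.7% and 59.5%, with up to 113 UMIs in a single cell. *Rspo1* is a leading gene of this cluster, although the members were left out of the clustering.

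**Figure D2:**
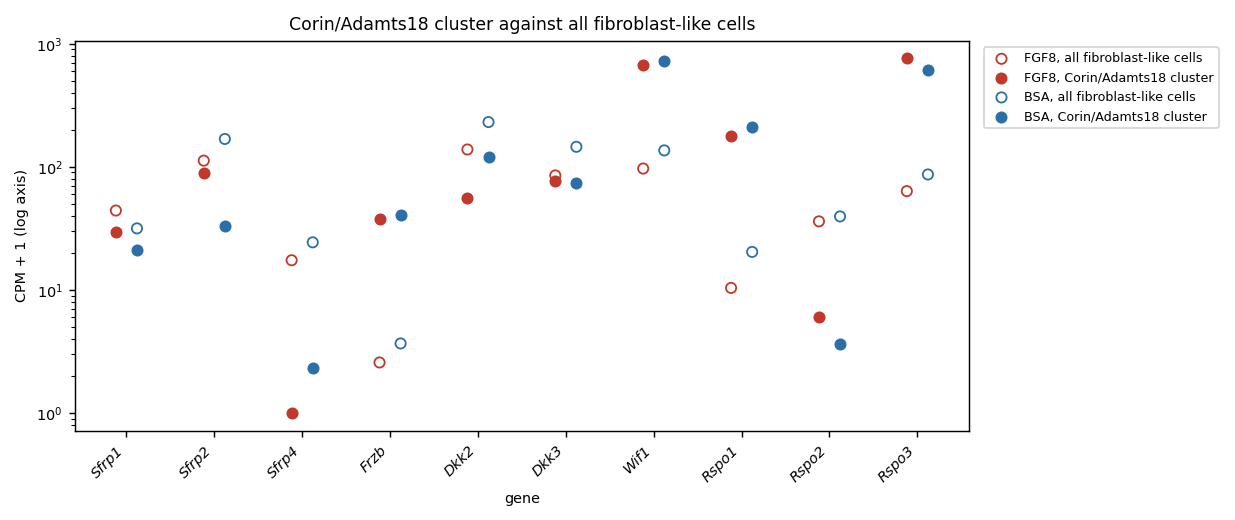
CPM + 1 on a log axis for each gene in the *Corin*/*Adamts18* cluster (filled, 72 FGF8 and 37 BSA cells) and in all fibroblast-like cells (open), with red for FGF8 and blue for BSA and 1 library each. *Wif1*, *Rspo1*, *Rspo3* and *Frzb* stand above their fibroblast-like level in both libraries, and the other 6 below it.

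Low counts of the members in blood cells are given as a background level, and their source was not tested. In erythroid-like cells, which should lack these genes, *Dkk2* was found in 1.25% (0.46 to 2.71) of FGF8 cells after thinning each cell to 2000 UMIs and in 0 of 75 BSA cells, whose exact interval reaches 4.80%. Unthinned, it was found there in 3.75% of FGF8 and 9.88% of BSA cells, at 8.43 and 10.6 CPM and median depths of 6983 and 18691 UMIs. In fibroblast-like cells the thinned share of *Dkk2* was 22.5% (21.1 to 23.99) in FGF8 and 26.3% (24.1 to 28.5) in BSA. The unthinned shares were 49.5% and 51.7% at median depths of 18623 and 20071 UMIs.

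Between the libraries, fibroblast-like cells of the FGF8 library held less of 9 of the 10 members by CPM and more of *Sfrp1*. The largest difference was in *Rspo1* and the smallest in *Rspo2*. Of all 20048 genes with at least 10 UMIs in these cells, 55.9% lay below a log2 ratio of 0. The median log2 ratio (FGF8 over BSA) was -0.55 over the 10 members and -0.07 over all those genes. A difference of at least 2-fold was seen in 1 member, *Rspo1*; 5.08% of all genes lay at or below a log2 ratio of -1 and 6.53% at or above 1.

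Among the antagonists, *Sfrp1* stood at 43.2 CPM with FGF8 against 30.6 CPM with BSA, a log2 ratio of 0.50 (0.39 to 0.60). *Sfrp2* was at 111 and 168 CPM, a log2 ratio of -0.59 (-0.64 to -0.54). *Sfrp4* was at 16.4 and 23.4 CPM, a log2 ratio of -0.51 (-0.64 to -0.38). Thus within the family of secreted frizzled-related proteins the libraries differed in opposite directions. *Frzb* rested on 110 and 95 UMIs, at 1.57 and 2.67 CPM, and its log2 ratio of -0.76 had a wide interval (-1.17 to -0.35).

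The Dickkopf members were lower in FGF8 by similar amounts. *Dkk2* was at 137 CPM against 230 CPM, a log2 ratio of -0.74 (-0.79 to -0.70). *Dkk3* was at 84.2 against 145 CPM, a log2 ratio of -0.78 (-0.83 to -0.72). *Wif1* was at 95.9 against 135 CPM, a log2 ratio of -0.49 (-0.55 to -0.44). The R-spondins spread more widely. *Rspo1* was at 9.39 CPM in FGF8 and 19.4 CPM in BSA, a log2 ratio of -1.05 (-1.20 to -0.89), and *Rspo3* at 62.5 and 85.8 CPM, a log2 ratio of -0.46 (-0.52 to -0.39). *Rspo2* was at 35.1 and 38.6 CPM, and its ratio of -0.14 (-0.23 to -0.04) was the nearest to 0. Summed over the members, antagonists stood at 490 CPM in FGF8 and 734 CPM in BSA and R-spondins at 107 and 144 CPM, so there were 4.58 and 5.11 antagonist UMIs for each R-spondin UMI.

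**Figure D3:**
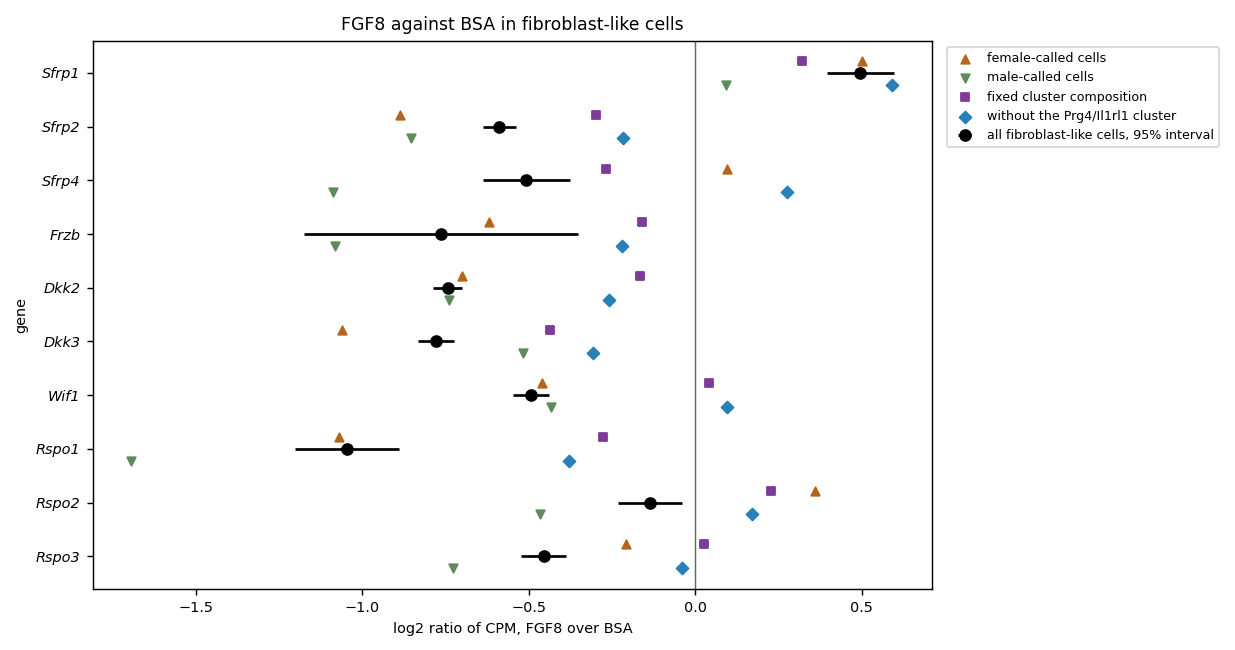
Log2 ratio of CPM (FGF8 over BSA, horizontal axis) of each gene in fibroblast-like cells, with 1 library per condition. Black points and bars are all fibroblast-like cells with the 95% counting interval; coloured points are female-called cells, male-called cells, a fixed cluster composition and all cells but the *Prg4*/*Il1rl1* cluster, and for *Wif1*, *Rspo2* and *Rspo3* the fixed composition lies right of 0.

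The sexes gave the same sign for 8 of the 10 members. *Rspo2* differed, at 44.1 CPM in FGF8 and 34.4 CPM in BSA female-called cells (log2 ratio 0.36, 0.21 to 0.51) and at 33.0 and 45.6 CPM in male-called cells (-0.47, -0.64 to -0.28). *Sfrp4* was nearly level in female-called cells, at 24.3 and 22.7 CPM, and lower in FGF8 in male-called cells, at 12.5 and 26.5 CPM. *Sfrp1* was higher in FGF8 female-called cells, with a log2 ratio of 0.50, but its interval in male-called cells ran from -0.09 to 0.28. *Dkk2* and *Wif1* had nearly the same ratio in both sexes (-0.70 and -0.74, and -0.46 and -0.43). *Sfrp2* was at -0.89 (-0.98 to -0.79) in female-called and -0.85 (-0.94 to -0.77) in male-called cells. Both lay below its -0.59 over all fibroblast-like cells, so that pooled value is not the ratio within either sex. The male-called BSA cells were few, 295 in all, against 2126 in FGF8.

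The cluster make-up of the fibroblast-like class also differed between the libraries. The *Prg4*/*Il1rl1* cluster, whose leading genes include *Mmp3* and the mitosis genes *Plk1*, *Birc5* and *Ccnb1*, held 34.4% of FGF8 and 16.4% of BSA fibroblast-like cells, and 55.2% and 25.3% of their UMIs; its cells were deep, with medians of 33658 and 31628 UMIs. *Dkk2* was at 56.4 CPM in FGF8 and 70.7 CPM in BSA there, against 449 and 549 CPM in the *Chodl*/*Sema3a* cluster. The share of cells in a cluster led by such genes is not read as a result, since these genes may themselves differ between the libraries. With the fine clusters held at one composition, the median over the members was -0.16, and 8 of the 10 log2 ratios lay between -0.30 and 0.23. *Dkk3* then kept a log2 ratio of -0.44 and *Sfrp1* of 0.32. *Wif1*, *Rspo2* and *Rspo3* changed sign, to 0.04, 0.23 and 0.03. The fixed composition weighted clusters by their shares of cells, whereas the main ratio pooled UMIs, so 2 things changed together. Equal weight of cells alone gave a median of -0.23, with *Rspo2* at 0.13. Without the *Prg4*/*Il1rl1* cluster the median was -0.13, and *Sfrp4* was higher in FGF8 (0.27).

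Within clusters *Sfrp1* was higher in FGF8 in 5 of the 6 clusters of fibroblast-like cells, each with an interval above 0. It was at 18.6 CPM in FGF8 against 8.04 CPM in BSA in the *Chodl*/*Sema3a* cluster (log2 ratio 1.21, 0.80 to 1.63). In the *Agtr2*/*Lpl* cluster it was at 74.1 against 45.5 CPM (0.70, 0.49 to 0.93). The ratios were 1.00 in the *Nrg1*/*Robo2*, 0.39 in the *Fmod*/*Kcnma1* and 0.29 in the *Prg4*/*Il1rl1* cluster. The share of cells with *Sfrp1* after thinning to 2000 UMIs separated the libraries less: its intervals overlapped in all 5 clusters, and in the *Nrg1*/*Robo2* cluster the share was 1.35% in FGF8 and 2.48% in BSA, so no order is read there. The exception was the *Lars2*/*Camk1d* cluster, whose cells were shallow (medians of 2549 and 3316 UMIs), at -1.03 from 45 and 38 UMIs. In Schwann-like cells, where *Sfrp1* was highest, the libraries were level (0.03, -0.12 to 0.18).

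**Figure D4:**
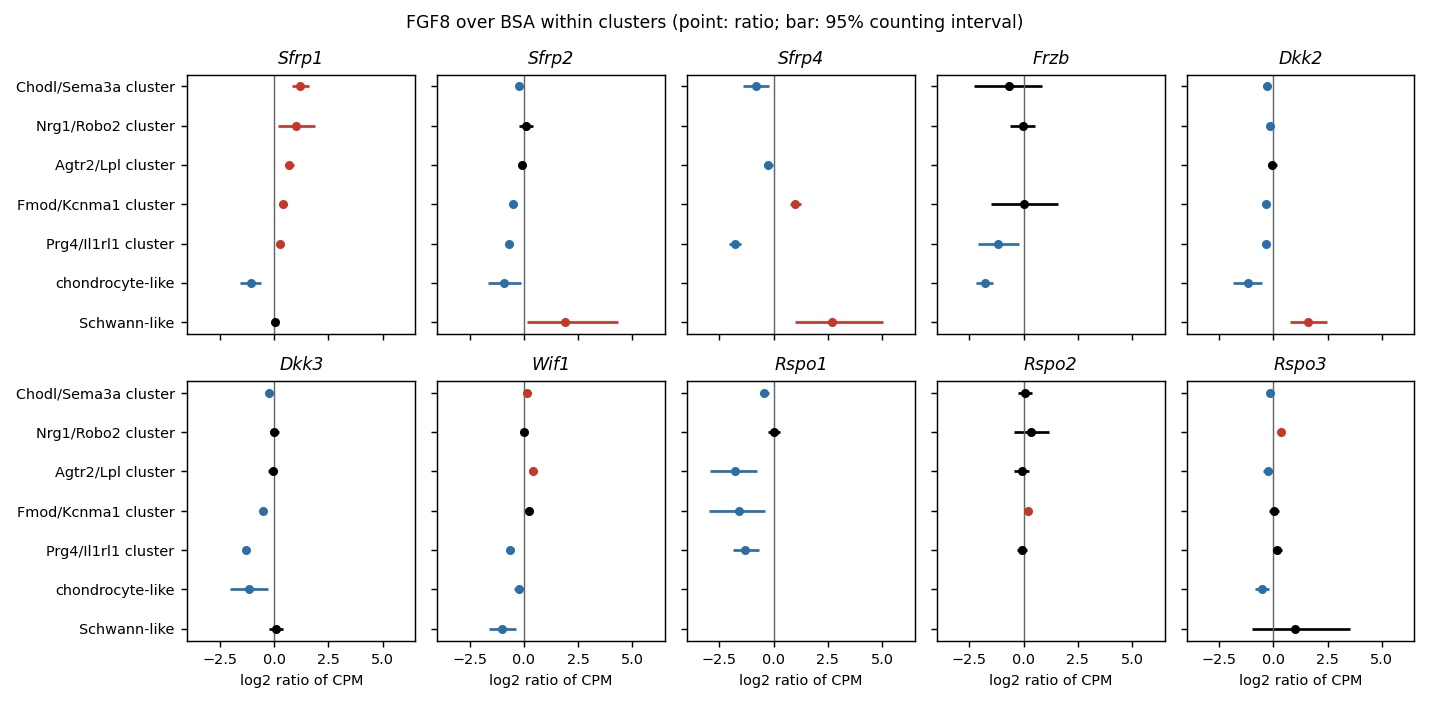
Log2 ratio of CPM (FGF8 over BSA) of each gene within 5 clusters of fibroblast-like cells, chondrocyte-like cells and Schwann-like cells, where at least 10 UMIs were counted. Bars are 95% counting intervals, red points have intervals above 0, blue points below 0 and black points across 0; *Sfrp1* is red in all 5 fibroblast clusters and blue in chondrocyte-like cells.

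Among the clusters of fibroblast-like cells, *Dkk3* and *Sfrp4* differed most between the libraries in the *Prg4*/*Il1rl1* cluster. There *Dkk3* was at 57.5 CPM in FGF8 and 143 CPM in BSA (log2 ratio -1.32, -1.42 to -1.22), whereas in the *Agtr2*/*Lpl* and *Nrg1*/*Robo2* clusters its intervals crossed 0. After thinning, *Dkk3* was found in 12.2% (10.3 to 14.2) of the FGF8 and 25.0% (20.04 to 30.5) of the BSA cells of that cluster. *Sfrp4* was at 6.58 and 22.6 CPM there (-1.78, -2.05 to -1.51), but in the *Fmod*/*Kcnma1* cluster it stood at 42.4 CPM in FGF8 and 21.3 CPM in BSA (0.99, 0.73 to 1.26). Both *Sfrp4* ratios rested on few cells of the BSA library: 20 cells held its 203 UMIs in the *Prg4*/*Il1rl1* cluster, 58 of them in 1 cell, and 17 cells held its 170 UMIs in the *Fmod*/*Kcnma1* cluster, 77 of them in 1 cell. The thinned shares of *Sfrp4* overlapped between the libraries in both clusters. In the *Prg4*/*Il1rl1* cluster 8 of the 10 members lay below 0 (55.5% of all genes) and 4 at or below -1 (8.80% of all genes): *Sfrp4*, *Dkk3*, *Rspo1* and *Frzb*, the last from 30 and 16 UMIs.

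In the clusters where *Dkk2*, *Wif1* and *Rspo3* were highest, the libraries lay close. *Dkk2* was at 449 and 549 CPM in the *Chodl*/*Sema3a* cluster (-0.29, -0.35 to -0.23). *Wif1* was at 366 and 369 CPM in the *Nrg1*/*Robo2* cluster (-0.01, -0.12 to 0.10) and slightly higher in FGF8 in the *Chodl*/*Sema3a* (0.15) and *Agtr2*/*Lpl* (0.40) clusters. *Rspo3* was at 254 CPM in FGF8 and 201 CPM in BSA in the *Nrg1*/*Robo2* cluster (0.34, 0.20 to 0.48). There, 1 cell held 113 of the 972 FGF8 UMIs. The *Corin*/*Adamts18* cells held 747 of these 972 and 461 of the 696 BSA UMIs, and a ratio without them was not computed. In the *Chodl*/*Sema3a* cluster *Rspo3* was at 148 and 165 CPM (-0.16). *Rspo1* was level in the *Nrg1*/*Robo2* cluster, at 61.5 and 60.1 CPM, and lower in FGF8 in the *Chodl*/*Sema3a* cluster, at 33.3 and 44.7 CPM. Over the whole *Nrg1*/*Robo2* cluster 3 of 9 measured members lay below 0 (49.7% of all genes).

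In chondrocyte-like cells the members were lower in the FGF8 library, but several of the values rested on 1 cell. All 7 members with at least 10 UMIs lay below 0 (53.4% of all genes) and 4 at or below -1 (6.27% of all genes). Without the cell of each library with the most UMIs of the gene, an alternative chosen after seeing the data, 5 lay below 0 and 3 at or below -1. *Frzb*, a Wnt-binding protein known from joint cartilage, was at 25.7 CPM in FGF8 and 89.2 CPM in BSA (-1.80, -2.20 to -1.40), from 82 and 146 UMIs in 141 and 66 cells. *Sfrp1* was at 21.3 and 45.2 CPM (-1.09), the opposite direction to fibroblast-like cells, and *Dkk2* and *Dkk3* were at -1.19 and -1.14. *Wif1*, the most abundant member there, was at 146 and 172 CPM (-0.24, -0.45 to -0.02). These levels rested on few cells: 104 of the 146 BSA UMIs of *Frzb* came from 5 cells, a UMI of *Frzb* was found in 21.99% of FGF8 and 30.3% of BSA cells, and 1 BSA cell held 125 of the 282 UMIs of *Wif1*. For *Dkk2* 1 BSA cell held 32 of the 42 UMIs. Without those top cells *Dkk2* changed sign to 0.51 (-0.58 to 1.71) and *Wif1* to 0.48 (0.21 to 0.75), while *Frzb*, *Sfrp1* and *Dkk3* were at -1.63, -1.17 and -1.24. The 6 chondrocyte markers summed to 35211 CPM in FGF8 and 46180 CPM in BSA, the 6 fibroblast markers to 2887 and 6150 CPM, and the 5 erythroid markers to 2062 and 114 CPM in the same cells. Their part in the members' ratios was not tested.

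The other genes of the pathway in fibroblast-like cells are given by list. Of 13 measured Wnt ligands 10 were lower in FGF8 and 3 higher, with a median log2 ratio of -0.72. Of 16 receptors and co-receptors 13 were lower, with a median of -0.38, and of 12 other antagonists and R-spondins 8 were lower, with a median of -0.41. The 12 genes listed as beta-catenin targets had a median of -0.18 with 9 lower. That list also held the gene of beta-catenin itself, *Ctnnb1* (-0.10), and the transcription factor genes *Tcf7l1* (-0.32) and *Tcf7l2* (-0.17). The 5 R-spondin receptors and ligases had a median of 0.11 with 2 lower. All genes had a median of -0.07 and 55.9% of them lay below 0, which the 8 of 12 other antagonists and R-spondins were near.

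The genes at the ends of these lists, among those with at least 100 UMIs, included other secreted regulators. *Notum*, an enzyme that inactivates Wnt proteins, was at 15.7 CPM in FGF8 and 4.98 CPM in BSA (log2 ratio 1.66, 1.43 to 1.89), and *Ccnd1*, a cyclin of the G1 phase, at 303 and 93.9 CPM (1.69). *Wnt7b* (1.45), the R-spondin receptor gene *Lgr6* (1.14) and the receptor gene *Fzd5* (1.06) were the other 3 of the highest. At the low end were the receptor gene *Fzd10* (-1.22), the antagonist *Dkk1* (-1.18), the ligand genes *Wnt2* (-1.16) and *Wnt9a* (-0.98) and the target gene *Tnfrsf19* (-0.94). *Dkk1* was thus lower in FGF8 like *Dkk2* and *Dkk3*, at 2.28 and 5.15 CPM. *Tnfrsf19* is a leading gene of the *Chodl*/*Sema3a* cluster, whose share of the fibroblast-like UMIs was 13.8% in FGF8 and 24.5% in BSA.

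**Figure D5:**
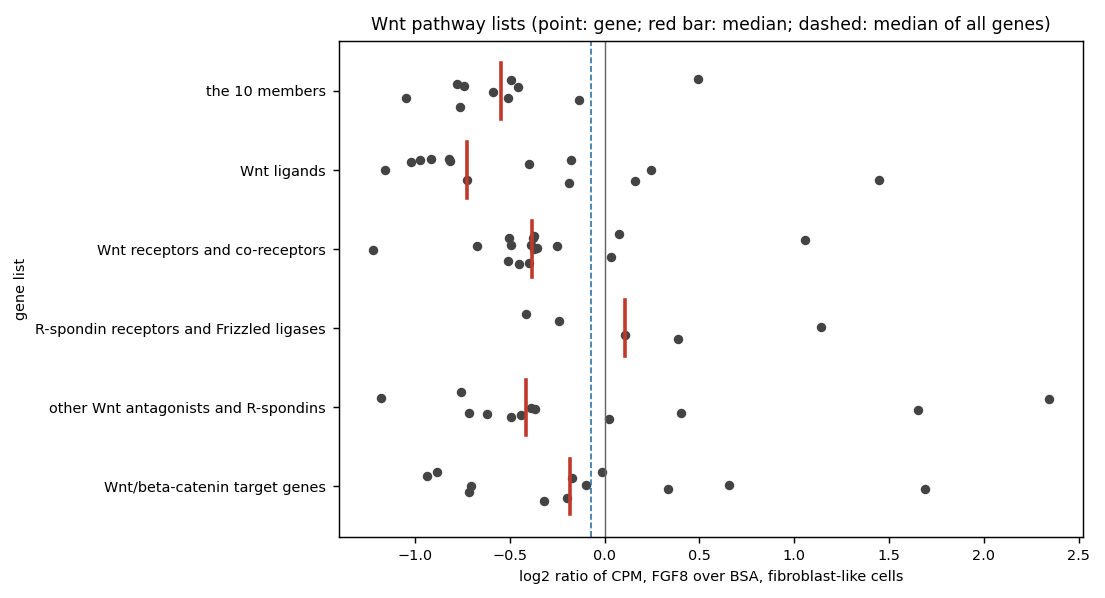
Log2 ratio of CPM (FGF8 over BSA) in fibroblast-like cells for the 10 members and the genes of 5 Wnt pathway lists with at least 10 UMIs; each point is a gene, the red bar is the median and the dashed line the median of all genes (-0.07). The medians run from -0.72 for the Wnt ligands to 0.11 for the R-spondin receptors and ligases.

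Receptors that R-spondins bind are given for the *Chodl*/*Sema3a* cluster. It ranked next after the *Nrg1*/*Robo2* cluster for *Rspo1* and *Rspo3*, and was the leading cluster of no R-spondin. Receptor levels in those leading clusters are not given. *Lgr5* was at 139 CPM in FGF8 and 135 CPM in BSA cells of the *Chodl*/*Sema3a* cluster, and *Lgr4* at 46.3 and 44.8 CPM there. The ligase gene *Znrf3* was at 39.8 and 38.6 CPM, whereas *Rnf43* had 0 and 2 UMIs in that cluster. In keratinocyte-like cells *Rnf43* was at 34.0 and 26.1 CPM. The target gene *Axin2* was at 60.7 CPM in FGF8 and 81.9 CPM in BSA cells of the *Chodl*/*Sema3a* cluster.

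Markers of other cell types in the fibroblast-like class were compared for the same cells. The 5 Schwann markers, whose cells hold the most *Sfrp1*, summed to 13.9 CPM in FGF8 and 16.4 CPM in BSA. The 6 chondrocyte markers, whose cells hold the most *Frzb*, summed to 250 and 275 CPM, with none at 0 in either library. The 6 fibroblast markers themselves summed to 16817 and 31363 CPM (-0.90), a larger difference than that of 9 of the 10 members, and their part in the members' ratios was not tested. Within a class, fewer cells that express a gene and less RNA of it per cell give the same summed CPM and cannot be told apart from it.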

How the data were processed

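The authors captured cells with 10x 3′ v3.1 chemistry and deposited UMI counts per gene and barcode from Cell Ranger 9.0.0; per the labels' processing notes, the builds named are GRCm39 and mm10 and the tools Cell Ranger and Seurat, and the features carry GRCm39 gene IDs. The members and lists were chosen with earlier results of these data known. Cells with more than 200 and fewer than 7500 genes and under 15% mitochondrial UMIs were kept, following the study's filters. They were merged, normalized by SCTransform and integrated by CCA in Seurat 5.3.0 (30 components, seed 42), at a resolution of 0.05 for broad classes and 0.5 for fine ones, on 2967 of 3000 variable features without members or list genes. A cluster was named only with at least 3 detected markers and a marker among its 10 leading genes; this naming rule was set with the data known. Doublets were kept, and an alternative drops the highest Scrublet scores (scanpy 1.11.5).

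UMIs were summed per class and library as CPM, with exact Poisson, binomial and conditional intervals (scipy 1.17.1); a class total of 0 was set to 3 counts, giving a bound. Ratios needed 50 cells a library and 10 UMIs. Likeness used genes with at least 500 UMIs, and the 3 highest Pearson r per member are named where given (some are not reported here); of the Wnt lists, the 5 highest and 5 lowest ratios with at least 100 UMIs are named. The ratio calculation was tested on simulated data. No test of treatment was possible with 1 library per condition, and shares cover counting error only.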

Additional observations from a re-analysis of the deposited data

Results flagged for a closer look

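Members whose counting intervals lay above 0 in one class and below 0 in another, with at least 10 UMIs in each library, are listed here; the differences between classes were not tested, and each library is a single pool. *Sfrp1* had a log2 ratio (FGF8 over BSA) of 1.37 in macrophage-like cells, from 48 and 10 UMIs, and of -1.09 in chondrocyte-like cells. Those macrophage-like levels were low, at 5.43 and 2.10 CPM, beside 2.16 and 4.93 CPM in erythroid-like cells. *Sfrp2* was at 1.498 in smooth muscle or pericyte-like cells, from 39 and 11 UMIs, and at -0.92 in chondrocyte-like cells, from 32 and 31 UMIs, 15 of the latter in 1 BSA cell. *Sfrp4* was at 0.99 in the *Fmod*/*Kcnma1* cluster and at -1.78 in the *Prg4*/*Il1rl1* cluster, where 20 BSA cells held its UMIs.

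*Dkk2* was at 1.58 in Schwann-like cells, from 72 and 16 UMIs, and at -1.22 in macrophage-like cells, where 1 BSA cell held 149 of 179 UMIs. *Dkk3* was at 0.47 in smooth muscle or pericyte-like cells, from 129 and 74 UMIs, and at -1.79 in erythroid-like cells, from 32 and 34 UMIs. Of those, 1 FGF8 cell held 12 and 1 BSA cell held 14. *Wif1* was at 2.13 in smooth muscle or pericyte-like cells, where 1 FGF8 cell held 30 of 55 UMIs, and at -1.27 in erythroid-like cells, where 1 BSA cell held 14 of 20 UMIs. Erythroid-like counts were given above as a background level, so no direction is read from them.

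*Rspo2* was at 0.97 in the shallow *Lars2*/*Camk1d* cluster and at -1.66 in macrophage-like cells, where 1 BSA cell held 24 of 34 UMIs. In fibroblast-like cells *Rspo2* was at 0.36 in female-called and at -0.47 in male-called cells. *Rspo3* was at 0.34 in the *Nrg1*/*Robo2* cluster, from 972 and 696 UMIs, and at -1.27 in endothelial-like cells, from 10 and 20 UMIs. The *Corin*/*Adamts18* cells held 747 and 461 of the *Nrg1*/*Robo2* UMIs.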

How the results depend on the processing

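In fibroblast-like cells *Sfrp1* stayed above 0 under all 13 alternatives (0.09 to 0.65), and *Sfrp2*, *Frzb*, *Dkk2*, *Dkk3* and *Rspo1* stayed below 0. The lowest *Sfrp1* value was that of male-called cells, whose interval crossed 0 (-0.09 to 0.28). In female-called cells the interval of *Frzb* also crossed 0 (-1.33 to 0.05). *Sfrp4* changed sign with the stricter cell filter (0.62), thinning to 2000 UMIs (0.0020), female-called cells (0.095), without the 10 cells of each library with most of its UMIs (0.066) and without the *Prg4*/*Il1rl1* cluster (0.27), an alternative chosen after seeing the data. *Rspo2* changed sign with the stricter filter (0.22), equal weight of cells (0.13), thinning to 2000 UMIs (0.10), female-called cells (0.36), a fixed composition (0.23) and without the *Prg4*/*Il1rl1* cluster (0.17). *Wif1* changed sign with thinning to 2000 UMIs (0.086), a fixed composition (0.042) and without that cluster (0.10), and *Rspo3* with a fixed composition (0.027). In chondrocyte-like cells, without the cell of each library with most UMIs of the gene, *Dkk2* (0.51) and *Wif1* (0.48) changed sign.

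The median over the members moved from -0.55 to -0.35 with the stricter filter, -0.23 with equal weight of cells, -0.32 with thinning to 2000 UMIs and -0.33 with thinning to 5000, -0.73 in male-called cells, -0.65 with the class called per cell, -0.16 at a fixed composition and -0.13 without the *Prg4*/*Il1rl1* cluster. The count of members past a 2-fold difference went from 1 to 2 in female-called cells and with the class called per cell, to 3 in male-called cells, and to 0 with the stricter filter, equal weight, either thinning, a fixed composition, centring on the median of all genes, without the 10 cells with most UMIs, and without the *Prg4*/*Il1rl1* cluster. With at least 100 UMIs a gene, the median of the R-spondin receptors and ligases turned from 0.11 to -0.066 (4 genes). Apart from what these settings remove or reweight, the causes were not tested. At a resolution of 1 the highest level of *Rspo3* in a cluster rose from 229 to 695 CPM, of *Wif1* from 367 to 690 and of *Rspo1* from 60.8 to 192, and *Sfrp2* was highest in a cluster led by *Cilp* and *Grem1* (304 CPM). At 0.3 *Dkk2*, *Wif1*, *Rspo1* and *Rspo3* shared a single leading cluster, led by *Nrg1* and *Tmem132c*. No paired analysis was possible because each condition is 1 library.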
